A study of Mus musculus with 9 samples.

Results

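In 3 of 9 RNA-seq libraries of mouse main olfactory epithelium, a single secreted protein transcript, Bpifb9b, made up more than 1% of all counts. These 3 libraries, 1 of each genotype, were selected on that measured value and are described here against the other 6. They came from wild-type mouse 1, Ms4a6c knockout mouse 2 and Ms4a cluster knockout mouse 2. The mice were C57BL/6 animals aged 8 to 12 weeks, with 3 littermate wild-type controls, 3 Ms4a6c knockouts made by homologous recombination and 3 Ms4a cluster knockouts in which CRISPR/Cas9 removed the Ms4a genes. MS4A proteins are membrane receptors of the necklace sensory neurons, and both knockouts are germline alleles. The labels held for the deleted gene: Ms4a6c was at 3.84, 4.99 and 4.67 CPM (counts scaled to library size) in the wild-type mice, at 0 to 0.127 CPM in the Ms4a6c knockouts and at 0 in all 3 cluster knockouts. Reads were aligned and assigned to genes by the authors, who deposited the expected count of each gene in each library. No label records how much nasal gland each dissection held.

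The nasal cavity is lined by sensory and respiratory epithelium that lies over and beside glands. Serous acinar cells of these glands, the lateral nasal gland among them, secrete odorant-binding proteins, major urinary proteins and antimicrobial proteins into the mucus. Odorant-binding proteins and major urinary proteins are lipocalins, small barrel-shaped carriers of hydrophobic molecules. Proteins of the BPI-fold family, to which BPIFB9B belongs, are secreted lipid-binding proteins related to the bactericidal permeability-increasing protein. In whole tissue, a larger number of gland cells and more RNA per gland cell cannot be told apart.

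Bpifb9b held 10.4% of the counts of wild-type mouse 1, 10.2% of those of Ms4a cluster knockout mouse 2 and 3.28% of those of Ms4a6c knockout mouse 2. In the other libraries it held 0.165% and 0.387% in wild-type mice 2 and 3, 0.486% and 0.0664% in Ms4a6c knockout mice 1 and 3, and 0.0264% and 0.327% in Ms4a cluster knockout mice 1 and 3. The library just inside the limit was thus that of Ms4a6c knockout mouse 2, at 3.28%, and the one just outside was that of Ms4a6c knockout mouse 1, at 0.486%. Per transcript length, Bpifb9b ranked 1 of all genes in the library of Ms4a6c knockout mouse 2 and 3 in each of the other pair. In the remaining 6 libraries its rank lay between 21 and 376.

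The other 3 gland markers did not follow Bpifb9b into all 3 libraries. Obp1a, an X-linked odorant-binding protein gene, held 1.81% of the counts of wild-type mouse 1 and 3.44% of those of Ms4a cluster knockout mouse 2, but 0.00988% of those of Ms4a6c knockout mouse 2. Mup4, a major urinary protein gene expressed in nasal glands, held 2.12%, 1.37% and 0.00629% in the same order. Bpifb9a, a near copy of Bpifb9b, held 3.76%, 3.51% and 0.215%. The label "gland-rich" therefore fits the libraries of wild-type mouse 1 and Ms4a cluster knockout mouse 2 by all 4 markers. The library of Ms4a6c knockout mouse 2 was high in Bpifb9b, higher than its mates in Bpifb9a, and within the range of the other 6 libraries in Obp1a and Mup4. The 3 libraries are called Bpifb9b-high below, and results are also given for the pair above 5%, wild-type mouse 1 and Ms4a cluster knockout mouse 2, against the other 7.

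**Figure D1:**
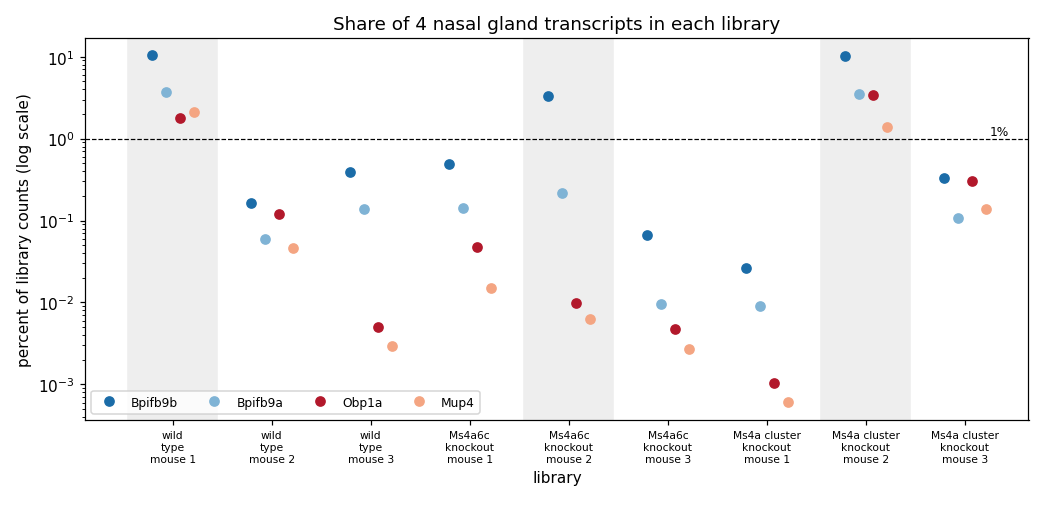
Percent of each library's counts (log axis) held by Bpifb9b, Bpifb9a, Obp1a and Mup4, with 1 point per gene and library, the 3 Bpifb9b-high libraries shaded and the 1% limit dashed. All 4 points lie above 1% in wild-type mouse 1 and Ms4a cluster knockout mouse 2; in Ms4a6c knockout mouse 2 Bpifb9b is at 3.28% while Obp1a and Mup4 are near 0.01% or below.

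The windows around the transcription starts of the 4 marker genes are shown because these genes split into the patterns described below. Each window holds 250 bases before the start and 50 after it, from RefSeq on build GRCm38.p6, written 5′ to 3′ on the gene's strand. Capitals mark TATAAA, the TATA box letters, and CATATG, one form of the E-box letters that basic helix-loop-helix factors bind, both searched on both strands with no overlap between matches; the E-box form CAGCTG was searched too and is in none of the 4.
Bpifb9b (chr2:154306994-154307293, plus strand): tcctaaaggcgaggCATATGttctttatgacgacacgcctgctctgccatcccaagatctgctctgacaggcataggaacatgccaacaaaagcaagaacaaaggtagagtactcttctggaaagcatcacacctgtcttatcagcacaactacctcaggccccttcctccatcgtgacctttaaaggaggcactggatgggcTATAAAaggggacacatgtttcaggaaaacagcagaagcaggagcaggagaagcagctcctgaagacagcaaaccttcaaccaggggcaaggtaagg
Bpifb9a (chr2:154257629-154257928, plus strand): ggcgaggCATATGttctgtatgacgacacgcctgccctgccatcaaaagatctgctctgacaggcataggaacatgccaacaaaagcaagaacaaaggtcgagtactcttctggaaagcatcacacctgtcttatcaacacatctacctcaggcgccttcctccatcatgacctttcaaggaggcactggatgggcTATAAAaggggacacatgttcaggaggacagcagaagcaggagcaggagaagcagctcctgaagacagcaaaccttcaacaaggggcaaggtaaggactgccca
Obp1a (chrX:78091325-78091624, minus strand): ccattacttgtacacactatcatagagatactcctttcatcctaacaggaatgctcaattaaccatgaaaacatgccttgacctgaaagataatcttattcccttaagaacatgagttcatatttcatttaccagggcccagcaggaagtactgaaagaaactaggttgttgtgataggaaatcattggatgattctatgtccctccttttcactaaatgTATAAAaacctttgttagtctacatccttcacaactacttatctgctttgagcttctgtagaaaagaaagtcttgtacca
Mup4 (chr4:59960618-59960917, minus strand): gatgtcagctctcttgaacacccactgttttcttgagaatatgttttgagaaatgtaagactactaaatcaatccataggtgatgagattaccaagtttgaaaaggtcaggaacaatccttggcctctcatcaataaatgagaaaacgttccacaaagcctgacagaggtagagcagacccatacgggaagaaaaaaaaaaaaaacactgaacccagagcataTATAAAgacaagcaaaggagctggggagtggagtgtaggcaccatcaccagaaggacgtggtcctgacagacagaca
The windows of Bpifb9a and Bpifb9b were 95.5% identical over 292 aligned bases, and both held CATATG and TATAAA. The longest coding transcripts of this pair, 2065 and 2067 bases, were 99.3% identical, so the division of reads between them rests on few bases and is uncertain. TATAAA began 47 bases before the RefSeq start in Bpifb9b, 54 in Bpifb9a, 30 in Obp1a and 27 in Mup4. For Bpifb9b, Bpifb9a and Mup4 the GENCODE M21 starts, used for gene positions below, differ from the RefSeq starts. The distances therefore depend on the annotation, and no contrast between the genes is read from them. Among 32817 RefSeq windows of this length, 13.62% held TATAAA, 3.92% CATATG and 16.31% CAGCTG. Of the 45 genes separated between the 3 libraries and the 6, defined below, 32 had a window of this length, and 9 of these held TATAAA, 5 CATATG and 4 CAGCTG. A gene counted if any of its windows held the letters, while the shares above count windows, so these are unlike measures. Bpifb9a and Bpifb9b, with near-identical windows, are among the 5. These matches describe letters in the windows only.

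A gene was called separated (called, in the plots) when its 3 values did not overlap the other 6 and the mean within-genotype difference was at least 1 on the log2 scale. The difference was taken on log2(CPM + 1), with CPM scaled by TMM (trimmed mean of M values), as the Bpifb9b-high library minus the mean of the other 2 of its genotype. Its error below is the SD over the 3 genotypes, each of which contributes 1 Bpifb9b-high library. Of 23225 genes, 45 were separated upwards, 0.194%, and 2 downwards, 0.00861%. Without the limit on size, 599 genes (2.58%) lay above and 572 (2.46%) below with no overlap. No p-value is given for these counts, since a measured transcript chose the libraries. With plain library sizes in place of TMM, 90 genes lay above and 3937 below with no overlap. The separated genes were then 30 upwards and 17 downwards. With TMM and without the library of Ms4a6c knockout mouse 2, the separated genes were 205 upwards and 8 downwards. The lower count was also 5 without wild-type mouse 1, 1 without wild-type mouse 2 and 4 without Ms4a cluster knockout mouse 1.

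The largest differences among the 45 genes were in secreted protein genes. The 15 largest among those with a mean of at least 5 CPM were Bpifb9b, 2310003L06Rik, Bpifb5, Odam, Bpifb9a, Cabs1, Pip, Wfdc18, Sval2, Rn7s2, Bhlha15, Prom2, Gucy2c, Gp2 and Egf. In the library of Ms4a6c knockout mouse 2, 14 of the 45 differed from their mates by at least 1 on the log2 scale.

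Bpifb9b itself was at 148513 CPM in wild-type mouse 1 against 1506 and 3473 in its mates, at 30616 CPM in Ms4a6c knockout mouse 2 against 4379 and 590, and at 144749 CPM in Ms4a cluster knockout mouse 2 against 235 and 2980. Its mean log2 difference was 5.90 ± 1.59 (SD, n = 3 genotypes). Bpifb9a was at 53548 CPM in wild-type mouse 1 and 49864 CPM in Ms4a cluster knockout mouse 2, but at 2010 CPM in Ms4a6c knockout mouse 2, where its mates had 1266 and 84.6. Its difference was 6.02 in the wild type, 7.45 in the cluster knockout and 2.61 in the Ms4a6c knockout.

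Bpifb5, the next gene of the family on the chromosome, had a Ms4a6c knockout difference close to that of Bpifb9b, which was 4.25. It was at 1138, 246 and 924 CPM in the 3 libraries, in the order wild type, Ms4a6c knockout and cluster knockout, against 2.25 to 25.3 CPM in the other 6. Its mean log2 difference was 5.76 ± 1.34, with 4.27 in the Ms4a6c knockout. The 3 genes are neighbours on chromosome 2, at chr2:154223742-154240902 for Bpifb5, chr2:154257854-154271245 for Bpifb9a and chr2:154307227-154320646 for Bpifb9b (GRCm38, GENCODE M21). Gm14197, between Bpifb9a and Bpifb9b, was also separated but stayed at or under 4.19 CPM.

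The other BPI-fold genes of the same stretch of chromosome 2 did not follow. Of 12 family members tested, 3 were separated upwards (25%, beside 0.194% of all genes) and 0 downwards. The 3 include Bpifb9b, which chose the libraries. Bpifa1, which encodes an airway surface fluid protein, was at 7836, 10787 and 7255 CPM in the 3 libraries and between 7199 and 10560 CPM in the other 6. Bpifb3 was at 2310, 2986 and 2417 CPM against 2308 to 3230. Bpifb4 and Bpifb6 also overlapped, at 1095 to 2957 against 1337 to 2640 CPM and at 458 to 1028 against 707 to 1212 CPM. Per transcript length, Bpifa1 ranked between 1 and 3 in the 6 libraries and 2 in Ms4a6c knockout mouse 2, and it ranked 16 and 18 in the pair above 5%. Bpifa1 was thus highly expressed in every library, whatever the level of Bpifb9b.

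On chromosome 5, a run of small secreted protein genes was high in all 3 libraries. Odam, an ameloblast-associated protein also made in glands, was at 206, 48.5 and 216 CPM, with the other 6 libraries between 0.451 and 4.43. 2310003L06Rik was at 769, 187 and 470 CPM against 0.701 to 21.5. Cabs1, a calcium-binding protein first described in sperm, was at 183, 35.2 and 152 CPM against 0.301 to 5.70. The lowest of the 3 libraries was Ms4a6c knockout mouse 2 for each of these genes, and it was above the highest of the 6 every time. The mean log2 differences were 5.58 ± 1.32 for Odam, 5.81 ± 1.18 for 2310003L06Rik and 5.03 ± 1.42 for Cabs1. They lie at chr5:87885029-87894174, chr5:87969459-87972870 and chr5:87979439-87981544, followed by Smr3a at chr5:88002549-88008534, which reached 6.97 CPM.

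Not all genes of that run shared this pattern. BC051076, annotated as an antisense gene at chr5:87963485-87966352, was at 19468 CPM in wild-type mouse 1 and 13565 CPM in Ms4a cluster knockout mouse 2 but at 46.5 CPM in Ms4a6c knockout mouse 2, whose mates had 90.3 and 17.8. Csn3, the kappa-casein gene at chr5:87925579-87932665, was at 9.88 and 10.6 CPM in that pair and at 0.682 CPM in Ms4a6c knockout mouse 2. These 2 genes, named after their values were seen, lie among genes that were high in all 3 libraries. The sources used here do not state whether counting used strand, so reads of BC051076 may belong to a gene on the other strand.

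On chromosome 6, Pip and Sval2, neighbouring genes of related secreted proteins, were as high in the Ms4a6c knockout library as in the pair or nearly so. Pip, the prolactin-inducible protein of exocrine glands, was at 121, 105.5 and 34.6 CPM, and at 0 to 7.82 CPM in the other 6. Sval2 was at 16.4, 17.9 and 15.2 CPM against 0.1 to 1.31. The mean log2 difference was 4.80 ± 1.16 for Pip and 3.75 ± 0.18 for Sval2. Their positions are chr6:41847535-41852065 and chr6:41852989-41864413. Sva, further along at chr6:42038394-42042851, was at 3.91, 3.97 and 3.09 CPM against 0.287 or less. Wfdc18, a whey acidic protein family gene on chromosome 11, was at 1843, 588 and 2139 CPM against 36.2 to 295, a mean log2 difference of 3.81 ± 0.40. Rn7s2, a short 7S RNA gene on chromosome 12 with near-identical copies, was at 33.3, 6.95 and 9.17 CPM against 0 to 6.49, and its counts are uncertain for that reason.

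Below this set the Ms4a6c knockout library came close to its mates. Bhlha15, also known as Mist1, a transcription factor of acinar secretory cells, was at 102, 11.1 and 103 CPM, and the other 6 libraries held 3.89 to 9.47. Prom2, a membrane protein of epithelial protrusions, was at 68.3, 7.57 and 61 CPM against 1.95 to 7.47. Gp2, a glycoprotein of secretory granules, was at 65.3, 23.0 and 54.7 CPM against 4.86 to 15.99. Egf, a growth factor made by exocrine glands, was at 54.2, 8.87 and 42.3 CPM against 4.61 to 8.42, and Gucy2c, the guanylin receptor, at 22.5, 3.60 and 18.3 CPM against 1.53 to 2.46. For Bhlha15 the log2 difference was 3.96 in the wild type, 3.64 in the cluster knockout and 1.26 in the Ms4a6c knockout. For Prom2, Gp2, Egf and Gucy2c it was at least 2.43 in the first pair and at most 0.79 in the Ms4a6c knockout.

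**Figure D2:**
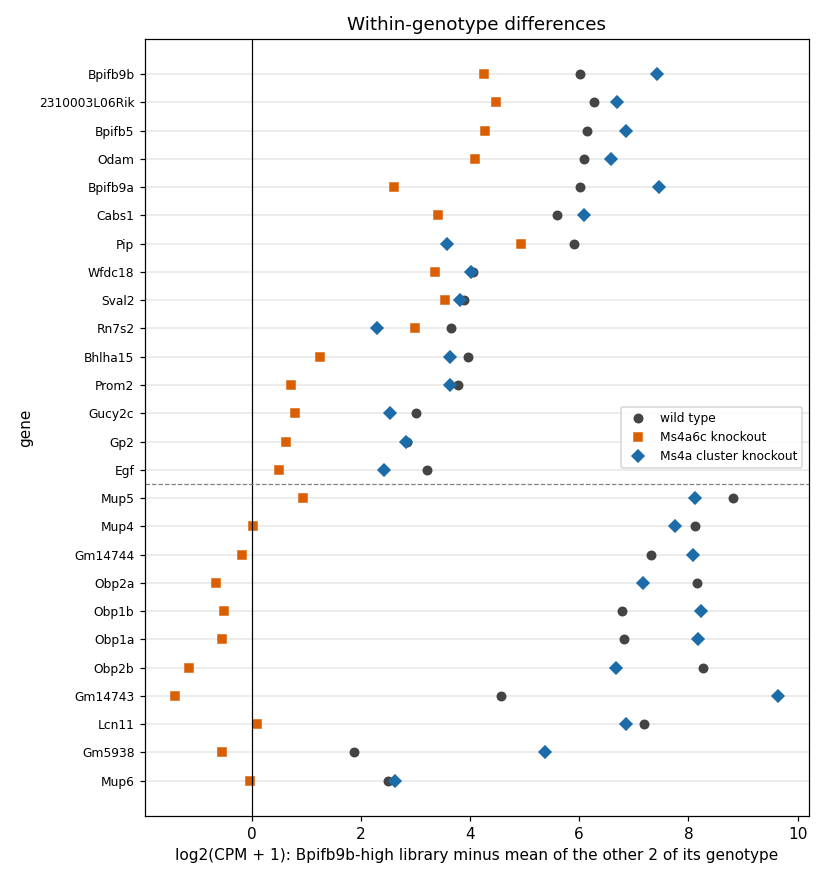
Within-genotype log2 difference of each gene (x axis, log2(CPM + 1), Bpifb9b-high library minus the mean of the other 2) with 1 point per genotype. Above the dashed line are the 15 largest separated genes, with all 3 points to the right of 0; below it are 11 lipocalin genes, whose Ms4a6c knockout points lie near 0 or to its left, from -1.40 to 0.95.

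Lipocalins formed the other pattern, high in wild-type mouse 1 and Ms4a cluster knockout mouse 2 and not in Ms4a6c knockout mouse 2. Of 14 lipocalin genes tested, 0 were separated between the 3 libraries and the 6. Between the pair above 5% and the other 7, 202 of 23225 genes (0.87%) were separated upwards and 7 (0.0301%) downwards, by the same definition, and 11 of the 14 lipocalins were among the 202. Without a limit on size, 2299 genes (9.9%) lay above and 1844 (7.94%) below in that pair with no overlap. With plain library sizes in place of TMM these counts were 296 and 14028. The median log2 difference of the 14 lipocalins was 6.81 in the wild type, 7.01 in the cluster knockout and -0.52 in the Ms4a6c knockout, beside -0.011, -0.017 and -0.003 for all genes. The pair shared 42 of the 45 genes with the contrast of 3 libraries, and for 164 of its 202 genes the Ms4a6c knockout difference was under 0.5 in either direction.

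The lipocalin genes sit in clusters on 3 chromosomes. On the X chromosome, Obp1a at chrX:78085505-78091374 was at 25734 CPM in wild-type mouse 1 against 1102 and 45.5 in its mates, at 48916 CPM in Ms4a cluster knockout mouse 2 against 9.27 and 2758, and at 92.2 CPM in Ms4a6c knockout mouse 2 against 428 and 41.7. The Ms4a6c knockout library thus lay between its mates. Obp1b at chrX:78186777-78192292 was at 29866, 58607 and 118 CPM, in the order wild type, cluster knockout and Ms4a6c knockout. Gm14744 at chrX:77864758-77870033 was at 59707, 66417 and 152 CPM, with 13.2 to 4245 in the other 6. Gm14743 reached 8437 CPM in Ms4a cluster knockout mouse 2 and 891 CPM in wild-type mouse 1.

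On chromosome 2, well away from the Bpif genes, Obp2a at chr2:25700043-25703326 was at 31561, 17061 and 95.8 CPM in the same order. Its neighbours Obp2b and Lcn11 were at 9008, 3481 and 18.6 CPM and at 6060, 4832 and 20.2 CPM. On chromosome 4, Mup4 at chr4:59956804-59960710 was at 30174, 19524 and 58.7 CPM, where the mates of the Ms4a6c knockout library had 137 and 23.8. Mup5 at chr4:61831319-61835233, whose transcript is 92.8% identical to that of Mup4, was at 3971, 2929 and 14.1 CPM. In every one of these genes both libraries of the pair lay above the other 7, with no overlap. Levels of Mup4 and Mup5 may share reads.

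The lipocalins outside the 11 were Lcn2, Lcn3 and Lcn4. Lcn2, a siderophore-binding protein of neutrophils and epithelium, was at 14.3, 21.6 and 15.3 CPM in the 3 libraries and at 12.2 to 32.0 CPM in the other 6. Lcn3 and Lcn4 encode carrier proteins of vomeronasal and nasal glands. Lcn3 was highest in Ms4a cluster knockout mouse 3, at 284 CPM, and next in mouse 2 of that genotype, at 70.0, with 0.171 to 29.7 elsewhere. Lcn4 had the same top pair of libraries, at 160 and 55.6 CPM. The wild-type library with high Obp1a held 5.33 CPM of Lcn3 and 0.853 CPM of Lcn4.

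**Figure D3:**
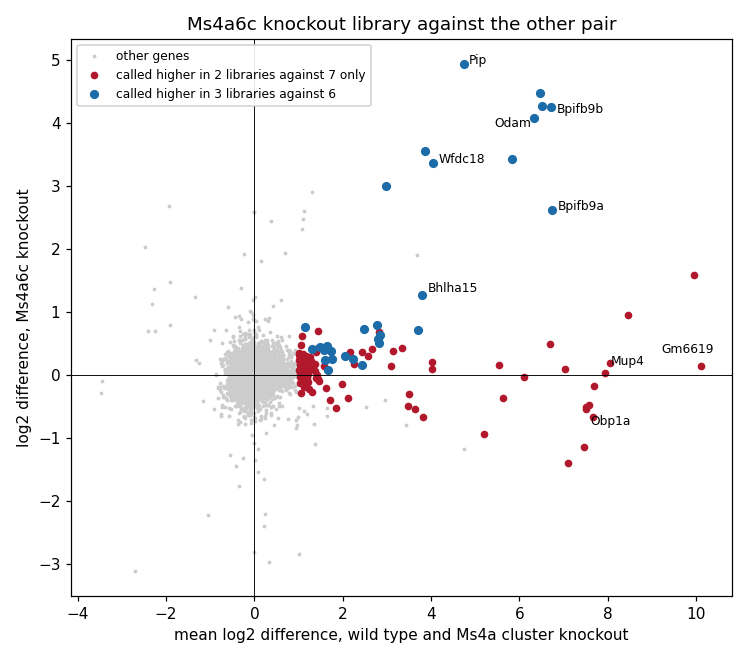
Each point is a gene with a mean of at least 5 CPM, placed by the mean of its log2 differences in the wild type and the Ms4a cluster knockout (x axis) and by its log2 difference in the Ms4a6c knockout (y axis). Pip, Bpifb9b, Odam and Wfdc18 are high on both axes, while Obp1a, Mup4 and Gm6619 lie at 7.51 to 10.12 on the x axis and at -0.54 to 0.15 on the y axis.

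Other genes high in that pair, some of them secreted enzymes, are named here after their values were seen unless they belong to the lists. Gm6619 and 5430401F13Rik, which overlap on chromosome 6 from position 131486400 on, had the largest difference of the pair, with means of 10.12 and 9.95 on the log2 scale. In Ms4a6c knockout mouse 2, 5430401F13Rik also exceeded the mean of its mates, by 1.59 on that scale. Gm6619 was at 53062 and 29224 CPM in the pair and between 0.451 and 381 CPM in the other 7; since the genes overlap, the division of their reads is uncertain. Dnase1, a secreted endonuclease, was at 599 and 557.5 CPM against 4.65 to 44.1. Klk1, tissue kallikrein of gland ducts, was at 171.5 and 120 CPM against 0 to 22.4. Pnliprp1, a lipase-related gland protein, was at 195 and 151 CPM against 0.852 to 3.94. For all of these genes both libraries of the pair lay above the other 7.

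The order of the other 6 libraries was not used to choose them. From high to low, Bpifb9b ran from Ms4a6c knockout mouse 1 through wild-type mouse 3, Ms4a cluster knockout mouse 3, wild-type mouse 2 and Ms4a6c knockout mouse 3 to Ms4a cluster knockout mouse 1. Exactly this order was held by 22 of 23225 genes, Bpifb9b included (0.0947%). Apart from Bpifb9b, which holds its own order by definition, 5 of these were among the 45 separated genes: Bpifb9a, whose reads are divided with those of Bpifb9b, and Bpifb5, Odam, Cabs1 and 2310003L06Rik. Counting Bpifb9b, 6 genes of this order were also among the 202 of the pair. Obp1a ran in another order, with Ms4a cluster knockout mouse 3 first, then wild-type mouse 2 and Ms4a6c knockout mouse 1. That order was held by 22 genes too (0.0947%), of which 6 besides Obp1a were among the 202 separated in the pair. These were Obp1b, Gm14744, Lcn11, Mup4, BC051076 and Rab26, and 0 of them were among the 45. Most separated genes held neither order, and the genes of each set were picked for the order they hold.

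**Figure D4:**
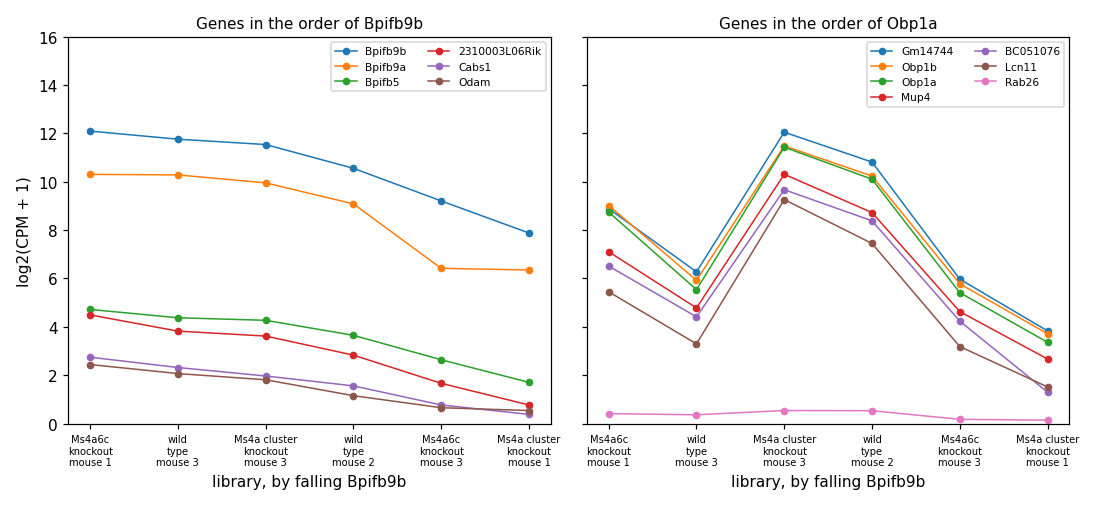
log2(CPM + 1) in the 6 libraries not above 1%, ordered on the x axis by falling Bpifb9b, with 1 line per gene. The left panel shows the 6 separated genes picked for the order of Bpifb9b; the 7 genes in the right panel, picked for the order of Obp1a, peak in Ms4a cluster knockout mouse 3, where Obp1a is at 2758 CPM.

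The 10 genes whose deviations from the genotype mean were most like those of Bpifb9b over the 9 mice were 2310003L06Rik, Bpifb5, Tmprss13, Anxa6, Cabs1, Bpifb9a, Glp1r, Gjb2, Wfdc18 and Dnaaf4, with Pearson r from 0.996 to 0.981. These correlations are a description of 9 libraries in which 3 carry most of the spread. Likeness was not size: Anxa6, an annexin, was at 98.2, 76.9 and 99.9 CPM in the 3 libraries against 66.6 to 82.9, and Tmprss13, a membrane serine protease, at 14.2, 15.5 and 15.9 CPM against 11.0 to 13.8. Only 5 of the 10 were separated genes.

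The ratio of Bpifb9b to Bpifb9a counts is given by mouse. It was 2.77, 2.78 and 2.78 in the wild-type mice and 2.91, 2.9 and 3 in the cluster knockouts, in replicate order. In the Ms4a6c knockouts it was 3.46, 15.2 and 6.98, each above all 6 other mice. On the log2 scale the Ms4a6c knockout mean exceeded the wild-type mean by 1.37 (exact permutation test, two-sided: p = 0.1, and groups of 3 cannot give a smaller one). The cluster knockout differed from the wild type by 0.08, also with no overlap (exact permutation p = 0.1). The ratio was examined because this separation had been seen in the same counts, so the test restates it and does not pass 0.05, and since the transcripts are 99.3% identical the ratio depends on how reads were divided. The ratio of Bpifb9b to Bpifb5 counts ran from 104 to 176 over the 9 libraries, and Ms4a6c knockout mouse 2, at 125, lay inside the range of the others.

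Among 30 genes of acinar and duct cells, 7 lay above (23.3%, beside 2.58% of all genes) and 2 below (6.67%, beside 2.46%) with no overlap in the 3 libraries, of which 2 were separated, Bhlha15 and Chrm1, a muscarinic acetylcholine receptor at 6.61, 1.92 and 5.18 CPM. In the pair, 18 of the 30 lay above with no overlap (60%, beside 9.9%) and 6 were separated upwards. Spdef, a transcription factor of secretory cells, was at 21.7 and 22.7 CPM in the pair against 6.56 to 9.97, and Kcnn4, a potassium channel of acinar cells, at 32.8 and 28.7 CPM against 3.92 to 7.92. Xbp1, which drives expansion of the endoplasmic reticulum, was at 291 and 294 CPM against 145.5 to 168. In Ms4a6c knockout mouse 2 it was at 168 CPM, the highest of those 7.

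Of 37 genes of the endoplasmic reticulum and secretory pathway, 9 lay above with no overlap in the 3 libraries (24.3%, beside 2.58% of all genes), and none below. In the pair 30 of the 37 lay above (81.1%, beside 9.9%). The median log2 difference of the list was 0.31 in the wild type, 0.31 in the cluster knockout and 0.02 in the Ms4a6c knockout. Sec11c, a signal peptidase subunit, was at 103, 50.3 and 101 CPM in the 3 libraries against 41.5 to 47.1. Tram1, of the protein translocation channel, was at 205.5, 103 and 197 CPM against 96.4 to 106. Hspa5, the main chaperone of the compartment, was at 611, 552 and 678 CPM against 484 to 545. These differences were under the 2-fold limit, with the exception of Sec11c in the pair.

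Other gland lists followed only in part. Of 28 genes of serous secretions, 5 were separated upwards in the 3 libraries (17.9%, beside 0.194% of all genes) and 0 downwards. The 5 were Odam, Pip, Wfdc18, Smr3a and Pigr. In the pair 7 of the 28 were separated upwards, 9 lay above with no overlap (32.1%, beside 9.9%) and 3 below (10.7%, beside 7.94%). Pigr, the receptor that carries IgA across epithelium, was at 141, 82.8 and 179 CPM against 47.5 to 81.9, so that the Ms4a6c knockout library exceeded wild-type mouse 2 by a narrow margin. Of 13 genes of plasma cells and IgA transport, 2 were separated upwards (15.4%, beside 0.194%) and 0 downwards in the 3 libraries. In the pair 2 of the 13 lay above with no overlap (15.4%, beside 9.9%) and 0 below. Igha, an immunoglobulin gene of plasma cells, overlapped, at 51.0, 33.2 and 18.0 CPM in the 3 libraries and 2.33 to 62.9 in the other 6. Derl3, an endoplasmic reticulum protein on the plasma cell list, was at 26.7, 5.64 and 29.9 CPM against 2.55 to 4.91. Scgb1c1, Chil6 and Reg3g, secreted proteins of nasal epithelium, overlapped between the groups, with 2149 to 2327 CPM of Scgb1c1 in the 3 libraries and 2250 to 2839 in the 6.

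Mucous products did not go with Bpifb9b in the contrast of 3 libraries. Of 17 genes, 0 were separated upwards and 1 downwards, Muc5ac, the surface goblet cell mucin, at 0.569, 0.186 and 0.199 CPM against 0.74 to 3.83. Muc5b, a gland mucin, was at 366, 378 and 284 CPM against 325 to 453. Agr2, needed for mucin folding, was at 204, 251 and 208 CPM against 199 to 260. The other gene separated downwards in this contrast was Gm12537, at no more than 0.434 CPM in the 3 libraries. In the pair, 3 of the 17 mucous genes lay above with no overlap (17.6%, beside 9.9%) and 1 below (5.88%, beside 7.94%), and 1 was separated upwards. Spdef, given above with the acinar genes and high in the pair, was also set as a mucous cell marker.

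Bowman's glands, which lie under the olfactory sheet itself, gave mixed values. Of 8 listed genes 0 were separated, and 1 lay above with no overlap in the 3 libraries (12.5%, beside 2.58%). In the pair 3 lay above (37.5%, beside 9.9%) and 1 below (12.5%, beside 7.94%). Sox10, a transcription factor of these glands and of glia, was at 48.1 and 39.97 CPM in the pair against 21.2 to 32.3, and Sox9 at 22.2 and 26.3 CPM against 14.8 to 16.9. Gpx6, an olfactory glutathione peroxidase, was lowest in the pair, at 971 and 910 CPM against 1281 to 1858. Aqp5, a water channel of serous cells, was at 228, 200 and 208 CPM against 156 to 198 in the other 6.

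Values of neuronal genes, and of other genes with small differences, depended on the scaling. The counts of list genes above or below with no overlap are given after TMM scaling only. With plain library sizes 14028 of all genes lay below in the pair, beside 1844 after TMM scaling. In plain library shares the median gene differed by -0.50 in the wild type, -0.05 in the Ms4a6c knockout and -0.49 in the cluster knockout on the log2 scale. The secretory pathway medians of 0.31 in the wild type and the cluster knockout, given above after TMM scaling, were smaller in size than this shift. Separated genes of the pair held 37.3% and 37.9% of its counts, 3.93% of those of Ms4a6c knockout mouse 2 and 0.256% to 2.54% in the other 6. By that plain measure Omp, the olfactory marker protein of mature sensory neurons, differed by -0.82, 0.02 and -0.97 in the same order. After TMM scaling, which sets that shift near 0, its differences were -0.16, 0.08 and -0.31, and its levels were 4501, 5212 and 4018 CPM in the 3 libraries and 4778 to 5215 CPM in the 6.

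Of 30 genes of mature sensory neurons, 11 lay below the other 7 in the pair (36.7%, beside 7.94% of all genes), the other 19 overlapped them, and 0 were separated. In the contrast of 3 libraries 0 lay below or above. Gnal, the olfactory G protein, was at 2154 and 1873 CPM in the pair against 2213 to 2478, and Cnga2, a subunit of the transduction channel, at 813 and 780 CPM against 859 to 1052. Of 1109 odorant receptor genes, 4 lay above (0.361%, beside 2.58% of all genes) and 19 below (1.71%, beside 2.46%) in the 3 libraries with no overlap, and 0 were separated. In the pair 93 lay below, 8.39% beside 7.94%, a share near that of all genes. Their summed level was 5756 CPM in Ms4a cluster knockout mouse 2, the lowest, and 6332 to 7106 CPM in the other 8 libraries.

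Among the cell type lists, the one of dividing basal cells and immature neurons had the most members below in all 3 libraries. Of its 23 genes, 6 lay below with no overlap (26.1%, beside 2.46%): Dpysl5, Gng8, Stmn1, Stmn2, Top2a and Tubb3. Stmn1, a microtubule regulator of growing neurons, was at 117, 145 and 153 CPM in the 3 libraries against 158 to 222. Gng8, a G protein subunit of immature sensory neurons, was at 5.40, 7.88 and 5.88 CPM against 8.73 to 10.2. The mean log2 differences of the 6 genes ran from -0.28 to -0.53, and 0 passed the 2-fold limit.

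Of 29 genes of sustentacular cells, the supporting cells of the sheet, 0 lay above or below in all 3 libraries. In the pair 8 lay below with no overlap (27.6%, beside 7.94%) and 1 above, and 0 were separated. Cyp2a5, a detoxifying enzyme of these cells, was at 9103, 12864 and 9118 CPM against 9138 to 11895. Of 29 genes of motile cilia, 5 lay above (17.2%, beside 2.58%), Dnah5, Dnah6, Dnah9, Rsph1 and Spag6l, with mean log2 differences from 0.19 to 0.45. Dnah5, an axonemal dynein, was at 158, 148 and 152 CPM against 94.0 to 147. After TMM scaling, mitochondrially encoded mRNAs summed to 59386 and 62696 CPM in the pair, above the 49222 to 54643 of the other 7. In plain library shares the direction was the reverse. All mitochondrially encoded genes held 4.345% and 4.628% of the counts of the pair and 5.758% to 6.291% in the other 7.

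**Figure D5:**
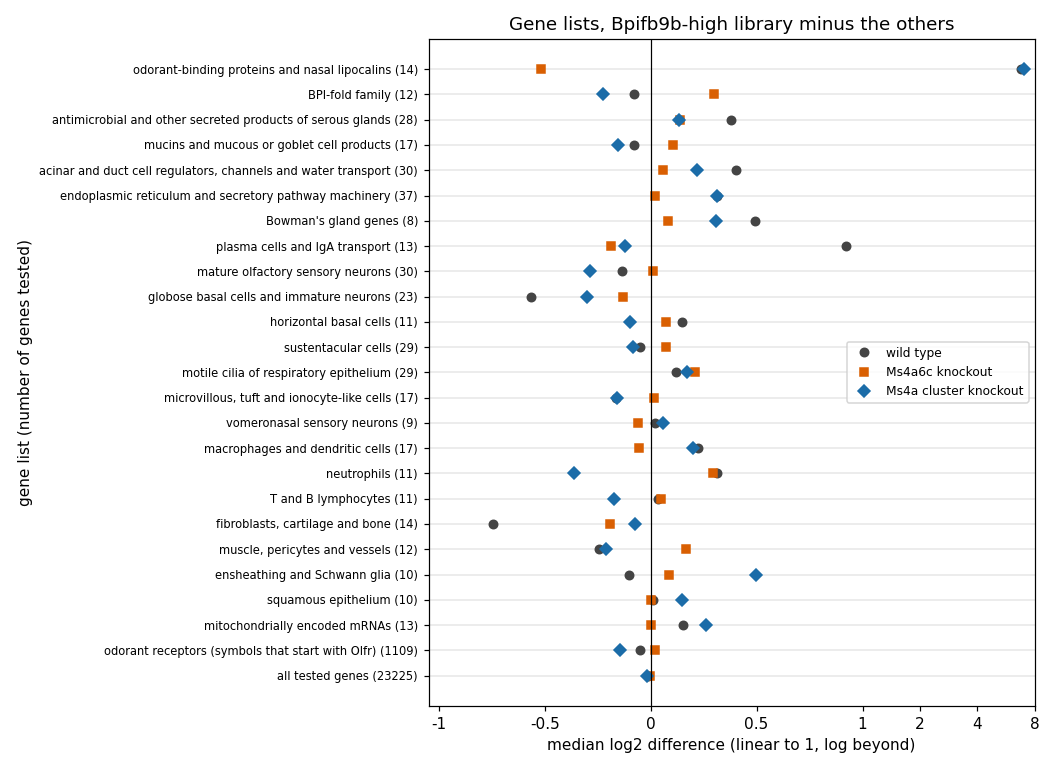
Median within-genotype log2 difference over each gene list (x axis, linear to 1 and logarithmic beyond), with 1 point per genotype and the number of genes tested in brackets. Lipocalins lie at 6.81 and 7.01 in the wild type and the Ms4a cluster knockout and at -0.52 in the Ms4a6c knockout, and secretory pathway genes at 0.31, 0.31 and 0.02.

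Genotype itself, which did not choose the libraries, could be tested over all genes. By the quasi-likelihood test of edgeR, with p-values adjusted after Benjamini and Hochberg, 101 genes (0.435%) differed between Ms4a6c knockout and wild type, 6 (0.0258%) between cluster knockout and wild type, and 103 (0.443%) between the knockouts. The 45 separated genes, of which 0 passed, were chosen for a library far from its mates within each genotype, which widens the spread this test uses, so nothing about genotype is read from that count; 0 of them had an unadjusted edgeR p under 0.05. Of the 202 genes of the pair, 0 passed in each comparison and 32, 0 and 32 had an unadjusted edgeR p under 0.05. These genes were chosen for high values in 1 wild-type and 1 cluster knockout library, with all 3 Ms4a6c knockouts among the libraries below. That choice sets the Ms4a6c knockouts low in advance besides widening the spread, so nothing about genotype is read from these counts either. For Obp1a the Ms4a6c knockout differed from wild type by -5.58 ± 2.56 (log2, SE; edgeR adjusted p = 0.484), and for Bpifb9b by -2.11 ± 2.14 (edgeR adjusted p = 0.776). Bpifb9b chose the high library of each genotype, which widens its spread in this test, and Obp1a is among the 202 genes. Nothing about genotype is therefore read from the p-values of Obp1a and Bpifb9b. Over all genes, DESeq2 in place of edgeR gave 345, 18 and 271 genes in the 3 comparisons. The first count was 59, 60, 66 and 159 without wild-type mouse 2, wild-type mouse 3, Ms4a6c knockout mouse 3 and Ms4a cluster knockout mouse 2. The second was 3 without each of the first 3 of these, and the third was 66 and 67 without Ms4a6c knockout mice 2 and 3.

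With the Bpifb9b-high library as a covariate, 143 of all tested genes differed between Ms4a6c knockout and wild type. Among them was 1 of the 202 genes, Gdf5, a growth factor of the bone morphogenetic protein family at chr2:155941023-155945367. It was at 8.39 CPM in wild-type mouse 1 against 2.72 and 2.22 in its mates, at 9.37 CPM in Ms4a cluster knockout mouse 2 against 2.25 and 2.51, and at 0.205, 0.31 and 0 CPM in the 3 Ms4a6c knockouts. Its log2 difference in that fit was -4.50 (edgeR adjusted p = 0.000791), and -4.58 ± 0.92 without the covariate (edgeR adjusted p = 0.0846). It was lower in 3 of 3 Ms4a6c knockout mice than in every other mouse. That these lay below wild-type mouse 1 and Ms4a cluster knockout mouse 2 was fixed by the choice of the 202 genes. The edgeR p-values of Gdf5 are therefore not support apart from that choice.

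Sex moved with the groups in part. By Xist and Ddx3y, the libraries of wild-type mouse 1, Ms4a6c knockout mice 2 and 3 and Ms4a cluster knockout mouse 3 came from males and the other 5 from females. In the wild type the Bpifb9b-high library was the only male one, so sex and gland transcripts cannot be told apart there, whereas in the cluster knockout the Bpifb9b-high library was female and in the Ms4a6c knockout 1 of its 2 mates was also male. Red blood cell genes summed to 671, 1954 and 2065 CPM in the 3 libraries and 684 to 2372 in the 6, and neutrophil genes to 466, 342.5 and 582.2 CPM against 185 to 728. Genes of fibroblasts, cartilage and bone summed to 4762, 4519 and 6428 CPM against 4885 to 10432, and 0 genes of these 3 lists were separated. Of the lists of horizontal basal cells, microvillous cells, vomeronasal neurons, macrophages, lymphocytes, vessels, glia and squamous epithelium, 0 genes were separated in the 3 libraries. With 0.194% of all genes separated upwards and 0.00861% downwards, lists this short can hold 0 without differing from all genes. With no overlap, 1 microvillous (5.88%), 1 vomeronasal (11.1%) and 1 lymphocyte gene (9.09%) lay below, beside 2.46%, and 0 genes of the same lists lay above. In the pair, 6 of 17 macrophage and dendritic cell genes lay above with no overlap (35.3%, beside 9.9%), Adgre1, Aif1, Cd74, H2-Aa, H2-Ab1 and H2-Eb1. In it 2 of 12 muscle and vessel genes (16.7%, beside 0.0301%) were separated downwards, the skeletal muscle genes Acta1 and Tnnt3. The size of that difference draws on 1 mate, Ms4a cluster knockout mouse 3. It held 64.7 and 75.6 CPM of these 2 genes, against at most 9.65 and 8.88 elsewhere. The part of sex and of these cells in the differences was not tested.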

How the data were processed

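Directional poly-A libraries of main olfactory epithelium were made from 9 mice, 3 per genotype. Per the labels and the study's methods, the authors aligned paired-end reads with STAR 2.6.1, estimated expected counts with RSEM 1.3.1 on GENCODE M25 (mm10) and deposited these expected counts for 55291 genes with no normalization. Groups and replicate numbers came from the sample labels.

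Column sums were 13954591 to 21987174. Expected counts were rounded, and genes were kept if their total over all libraries reached 10 counts; these 23225 genes were scaled by TMM and tested by genotype with edgeR 4.0.16 (R 4.3.3, quasi-likelihood, Benjamini-Hochberg adjustment, threshold 0.05). On simulated counts for Ms4a6c knockout against wild type over 23225 genes, this test called 200 of 200 genes changed 4-fold and 8 unchanged ones. CPM are counts divided by the TMM-scaled library size, and differences used a pseudocount of 1 CPM. DESeq2 1.42.0 and matplotlib 3.10.9 were also used. Coordinates came from GENCODE M21 on GRCm38, to which 99.6% of genes matched. Nothing says whether libraries were prepared together. Depth limits precision, and intervals of low counts would cover counting error only.

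The libraries, gene lists and named genes were chosen with earlier results of these data known. Named genes are the 4 markers, the list genes, the 15 largest separated genes in each direction with a mean of at least 5 CPM (0 downwards qualified) and the 10 most correlated with Bpifb9b; others are said to be named after their values were seen or belong to a count. The pair above 5% and the orders in the other 6 libraries were added after the data were seen. Alternatives are given in the closing section.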

Additional observations from a re-analysis of the deposited data

Results flagged for a closer look

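In 9 listed genes, wild-type mouse 1 and Ms4a cluster knockout mouse 2 lay at least 1 log2 unit above the mean of their mates. In the same genes Ms4a6c knockout mouse 2 lay at least 0.5 below the mean of its own mates. For Obp1a it lay between its mates, so a value below their mean need not lie below both. Each direction rests on 1 library per genotype, and the difference between genotypes was not tested. The Ms4a6c knockout difference was -0.54 for Obp1a, -0.5 for Obp1b, -0.66 for Obp2a, -1.14 for Obp2b, -1.4 for Gm14743 and -0.54 for Gm5938, all lipocalin genes. It was -0.51 for Car6, a secreted carbonic anhydrase, -0.67 for Scgb2b27, a secretoglobin, and -0.94 for Klk1. In the wild type and the cluster knockout the same genes differed by 6.83 and 8.18 for Obp1a, by 8.27 and 6.67 for Obp2b and by 2.47 and 2.58 for Car6. Groups of 3 mice were too small to look for single outlying samples.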

How the results depend on the processing

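The count of 45 genes separated upwards became 109 with a 1.5-fold limit, 19 with a 4-fold limit, 94 with a pseudocount of 0.1 CPM and 202 for the pair of libraries above 5%, and ran from 39 to 205 when each library was left out in turn. The count of 2 downwards became 17 with plain CPM, 15 with a 1.5-fold limit, 0 with a 4-fold limit, 60 with the pseudocount of 0.1 CPM and 7 for the pair, and ran from 1 to 8 with a library left out. The limits and the pair change the definition itself; for plain CPM and the pseudocount the cause was not tested. By genotype, Ms4a6c knockout against wild type gave 162 genes without the 3 Bpifb9b-high libraries and 345 with DESeq2, where the other comparisons gave 18 and 271. Leave-one-out ranges were 59 to 159, 3 to 7 and 66 to 121 in the 3 comparisons. Adding a replicate block changed these counts to 71, 2 and 75. Mice with the same number did not deviate together on average (mean r -0.131, against 0.0688 for different numbers, over 17691 genes). The numbers were not used as pairs in the main test. The Bpifb9b-high libraries, mouse 1 in the wild type and mouse 2 in both knockouts, are part of these correlations. Whether mice of the same number shared a litter or a preparation was not tested. Recomputed mean differences of named genes were set against their SD over the 3 genotypes, a wide limit where the Ms4a6c knockout differed. Obp1a went from 4.83 to 7.51 without Ms4a6c knockout mouse 2 and still counted as within it. Of 276 recomputed mean differences, 269 stayed within 1 SD of the value given, and 7 moved further. None of the separated genes or lipocalins among them changed sign; Bpifa1, at -0.059, was at 0.045, 0.009 and 0.056 without wild-type mouse 1, Ms4a6c knockout mouse 3 and Ms4a cluster knockout mouse 2. Taking in each genotype the library with the highest sum of Bpifb9a, Obp1a and Mup4 gave the same 3 libraries, but in the Ms4a6c knockouts this rests on Bpifb9a: Obp1a and Mup4 were higher in mouse 1 than in mouse 2. With 1 Bpifb9b-high library per genotype, no difference between genotypes in response can be tested, and genes under a few CPM rest on few reads.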

Other observations

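A few genes of amino acid metabolism were picked because they were high in wild-type mouse 1 and Ms4a cluster knockout mouse 2, so they say nothing of that group of genes as a whole. Asns, asparagine synthetase, was at 136 and 121 CPM in this pair and at 32.2 to 66.2 CPM in the other 7. Pycr1, of proline synthesis, was at 50.7 and 50.2 CPM against 5.35 to 8.42, and Aldh1l2, a mitochondrial folate enzyme, at 40.8 and 36.0 CPM against 1.91 to 3.94. Chac1 and Eif4ebp1, picked in the same way, were at 16.2 and 19.3 CPM against 1.86 to 5.06 and at 28.3 and 33.1 CPM against 8.93 to 11.8. Phgdh, of serine synthesis, and the amino acid transporter genes Slc7a1 and Slc1a5 were about 2-fold higher in the pair, with mean log2 differences of 1.09, 1.19 and 1.05. In Ms4a6c knockout mouse 2 the log2 difference of these 8 genes lay between -0.52 and 0.31.

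Ms4a cluster knockout mouse 3 stood apart in another set. In it 13 genes with a mean of at least 5 CPM exceeded the next highest library by at least 1 log2 unit. Most were skeletal muscle genes: Pvalb was at 95.7 CPM against at most 3.55 elsewhere, Myh4 at 88.1 against 4.77 and Ckm at 91.8 against 7.16. The others were Lcn3, Lcn4 and Dmbt1, a mucin-like gland protein at 476 CPM there against 1.54 to 222 elsewhere. Its Bpifb9b share was 0.327%, and its Obp1a share, 0.303%, was the highest of the libraries not above 5%.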
